A study of Mus musculus with 36 samples.

Results

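Atp2a2 (ENSMUSG00000029467.15) encodes SERCA2, the calcium pump of the sarcoplasmic reticulum, and its chromatin accessibility was followed in sorted heart nuclei after myocardial infarction. The regions described are all those of the 9 deposited ATAC-seq lists that overlap 122880000 to 122990000 of mouse chromosome 5 (build mm9). The gene itself spans about 122.90 to 122.95 Mb, an approximate position that was not taken from an mm9 annotation. This gave 62 regions out of 122759, of which day 4 listed 23, day 7 listed 10 and day 14 listed 29. The place was chosen by its sham-higher calls and by the tags of a wide day 7 region, so all border zone to sham values below are descriptions, with no test.

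SERCA2 pumps calcium from the cytosol back into the sarcoplasmic reticulum after each contraction, which lets the muscle relax and refills the store for the next beat. The isoform SERCA2a predominates in cardiac muscle, SERCA2b is made in most tissues, and phospholamban restrains the pump. A reduced SERCA2 level is a well-known feature of failing myocardium. Atp2a2 is transcribed towards lower coordinates, so its start lies at the higher-coordinate end. In the RefSeq annotation of GRCm38.p6, Anapc7, a subunit of the anaphase-promoting complex, is the neighbour at lower coordinates. The pseudogene Gm22965, the long noncoding RNA 1700040P09Rik and Ift81, an intraflagellar transport gene, follow at higher coordinates.

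ATAC-seq uses a transposase that cuts accessible DNA, and each tag is a sequenced read end or fragment assigned to a region. The border zone is the surviving ventricular muscle next to an infarct, and sham animals were operated on without infarction. All mice were on the FVB/N background, and no age is stated. Days 4, 7 and 14 after surgery had 1 border zone library and 1 sham library each, hence no replicate, and intervals below are exact 95% binomial intervals that cover counting error alone. On day 4 both groups came from mice labelled as a Cdh5-Cre; Sun1-sfGFP/- background, Cdh5 being an endothelial promoter. Their labels name GFP sorting on a flow cytometer and a PCM1 pulldown, which enriches cardiomyocyte nuclei. Which nuclei the GFP sort kept on day 4 is not clear from these labels. On days 7 and 14 both groups carried Myh6-MerCreMer, a tamoxifen-inducible Cre driven in cardiomyocytes, and the nTnG reporter. The labels also name a CAG-driven Sun1/sfGFP allele at the Rosa locus for this breeding, and no tag says which alleles a given animal had. These mice received tamoxifen at 20 mg/kg on 3 days from 1 week before surgery, and 50000 GFP-sorted nuclei, gated for cardiomyocyte origin, were used per sample. Whether a library came from 1 animal or a pool is not stated. Genotype, isolation and aligner therefore all change between day 4 and the later days, and cannot be told apart from the day. The labelled cell type was not checked against marker genes, because no mm9 annotation was used. The other 30 samples, all RNA-seq, were not used here, so none of the values below is an expression level.

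The listed regions of the whole series carried 3682070 scaled border zone and 3858892 sham tags on day 7, the shallowest day, and 14077000 and 13936013 on day 14, the deepest. For days 4, 7 and 14, the log2 ratio (border zone over sham) of the median listed region was -0.09, -0.14 and 0.03. Border zone tags are given as deposited, except where whole tags are named. The authors scaled them in all lists but the non-differential list of day 4, which holds unscaled counts. Sums and ratios of day 4 over both kinds of list therefore mix scaled and unscaled border zone tags. Regions below the authors' tag minimum are in none of the lists, and a stretch with no region has no measured value.

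Along Atp2a2, accessibility was lower in the border zone than in sham on all 3 days, and the difference was widest on day 7. Regions of the different days joined into a continuous stretch of 53.5 kb, from 122897251 to 122950750, which covers the approximate gene span. On day 4 this stretch held 5232 border zone tags against 7173 sham tags. On day 7 it held 4061 border zone tags against 10570 sham tags. On day 14 it held 21476 border zone tags against 32751 sham tags. In each pair the border zone library was the lower. The border zone to sham ratio was 0.729 for day 4 (0.704 to 0.756), 0.384 for day 7 (0.369 to 0.400) and 0.656 for day 14 (0.643 to 0.668). Relative to the day's median listed region, the log2 ratio differed by -0.36, -1.24 and -0.64. The interval of day 7 does not meet those of the other days, but the spread between libraries of a group was not measured. Over the whole series the authors also called the largest share of regions on day 7, 22% sham-higher and 17.5% border zone-higher. Whether the wider gap of day 7 is particular to Atp2a2 was not tested. In bulk libraries, a smaller share of cardiomyocyte nuclei and lower accessibility per nucleus cannot be told apart.

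By whole tags, the same stretch can be read as a share of each library's own listed tags, which needs no scaling between libraries. On day 4 it held 0.0953% of border zone tags and 0.121% of sham tags. On day 7 the shares were 0.110% in the border zone and 0.274% in sham. That border zone share uses 3016 whole tags, the fewest that could give the listed values, and up to 3340 could. On day 14 they were 0.152% in the border zone and 0.235% in sham. The ratio of the shares was 0.785, 0.401 and 0.647 on days 4, 7 and 14. The sham share on day 7 was the highest of the 6 libraries, and the border zone share on day 4 was the lowest. Shares of different days have unlike denominators, since the lists differ in total length. The stretch made up 0.078%, 0.121% and 0.106% of the listed length on days 4, 7 and 14, so this ranking is not read as a change between days.

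**Figure D1:**
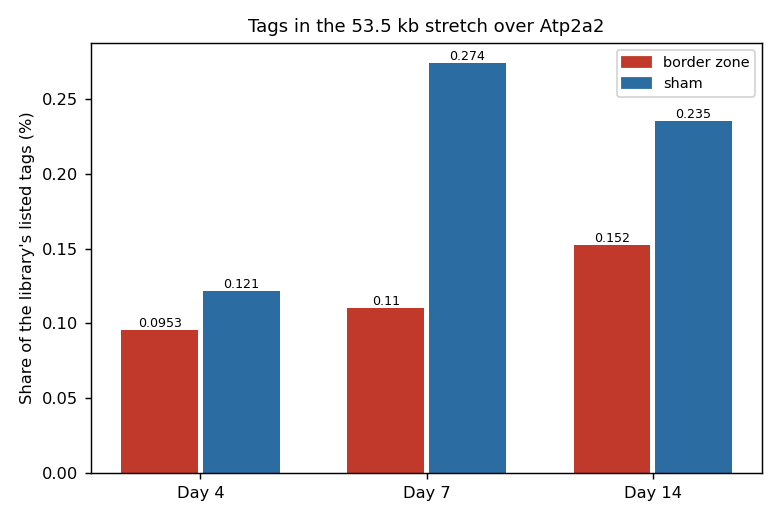
Share of each library's listed tags (whole tags, %, y axis) in the 53.5 kb stretch over Atp2a2, by day (x axis), with 1 bar per library, border zone left and sham right. The border zone bar is the lower of the pair on every day, with the widest gap on day 7 (0.110% against 0.274%). The day 7 border zone bar uses the fewest whole tags that could give the listed values.

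The authors called 10 of the 23 regions of day 4 sham-higher, 5 of the 10 of day 7 and 14 of the 29 of day 14. Their sham-higher lists held 7.37% of all listed regions for day 4, 22% for day 7 and 6.75% for day 14. None of the 62 regions was in a border zone-higher list, which held 12.2%, 17.5% and 13.4% of all listed regions on days 4, 7 and 14. The rule used these calls, so the counts are given beside the background and nothing is read from them. The listed border zone value was below the sham value in 23 of 23, 10 of 10 and 28 of 29 regions, against 56.4%, 55.6% and 48.2% of all listed regions. Within the window a region's median ratio was 0.626, 0.565 and 0.604 for days 4, 7 and 14. Over all listed regions it was 0.938, 0.906 and 1.02.

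Counts of regions hide how much of the gene each call covers. On day 7, 50 kb of the stretch lay in the sham-higher list out of 51 kb listed. On day 14 this was 17 kb of 52 kb, and on day 4 6.5 kb of 46.5 kb. Over the whole series, non-differential regions made up 83.2%, 59.7% and 81.1% of the listed length on days 4, 7 and 14. Differential regions thus covered a larger part of all listed length on day 7 than on the other days. Every base that was sham-higher on day 14 in the stretch was also sham-higher on day 7, which is 100% of the day 14 length and 34% of the day 7 length. All 6.5 kb of day 4 were likewise inside the sham-higher length of day 7, of which they made up 13%. Days 4 and 14 had 3.5 kb of sham-higher sequence in common, 53.8% of the day 4 length and 20.6% of the day 14 length. The same overlap over all listed regions is not given here, so nothing is read from these shared lengths. Nearly the whole stretch was sham-higher on day 7, so little else could have been found for the overlaps with that day.

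**Figure D2:**
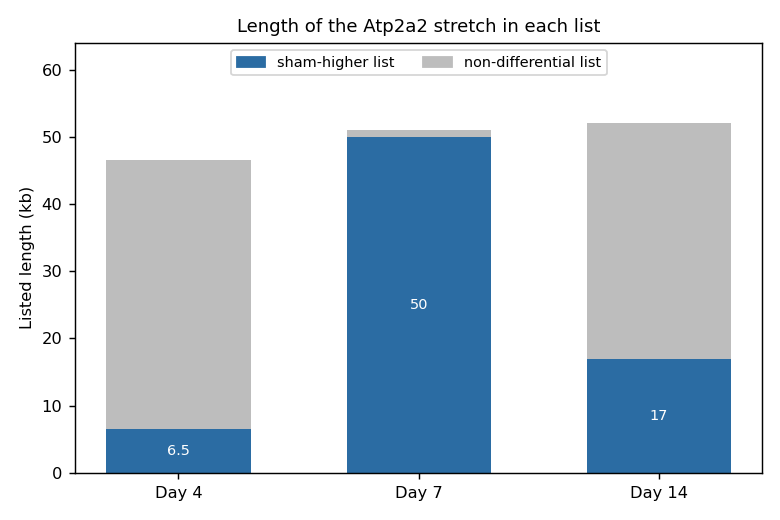
Length of the Atp2a2 stretch (kb, y axis) in the sham-higher list and in the non-differential list on each day (x axis). The sham-higher part is 6.5 kb on day 4, 50 kb on day 7 and 17 kb on day 14, while the listed length stays between 46.5 and 52 kb. Over the whole series, non-differential regions made up 83.2%, 59.7% and 81.1% of the listed length on days 4, 7 and 14.

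The wide region of day 7 ran over 41 kb, from 122909751 to 122950750, most of the approximate gene span. It had 2882 scaled border zone tags against 7673 sham tags, a ratio of 0.376 (0.358 to 0.394). Its border zone value mixes both scaling factors of that day, and between 2141 and 2465 whole border zone tags could give it. It was the widest of the 122759 listed regions of all days, and the next widest of day 7 spanned 22.5 kb. It also held the most sham tags of any day 7 region, ahead of a region with 5991. Of the 118 day 7 regions with at least 1000 sham tags, 34 were sham-higher and 2 had a lower ratio. Among all 34952 day 7 regions, all others having fewer sham tags, it ranked 1409 from the lowest ratio. The median sham-higher region of day 7 was 1000 bp wide, and 5 of 7704 reached 10 kb.

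Over the same bases, the other days listed many narrower regions. On day 4, 14 regions overlapped the wide region, 6 sham-higher and 8 non-differential, with 3568 border zone tags against 5049 sham tags. On day 14, 18 regions overlapped it, 9 sham-higher and 9 non-differential, with 16275 border zone tags against 25103 sham tags. Sham was thus ahead over these bases on each day, and the calls broke the stretch into pieces on days 4 and 14. The summed ratio was 0.707 for day 4 (0.677 to 0.738) and 0.648 for day 14 (0.634 to 0.663), against 0.376 for the wide region itself. The widest sham-higher region of any place on day 4 was 7 kb and on day 14 7.5 kb. Wider regions were listed on those days as non-differential, up to 31.5 kb on day 4 and 16.5 kb on day 14, and 13 and 10 regions reached 10 kb.

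**Figure D3:**
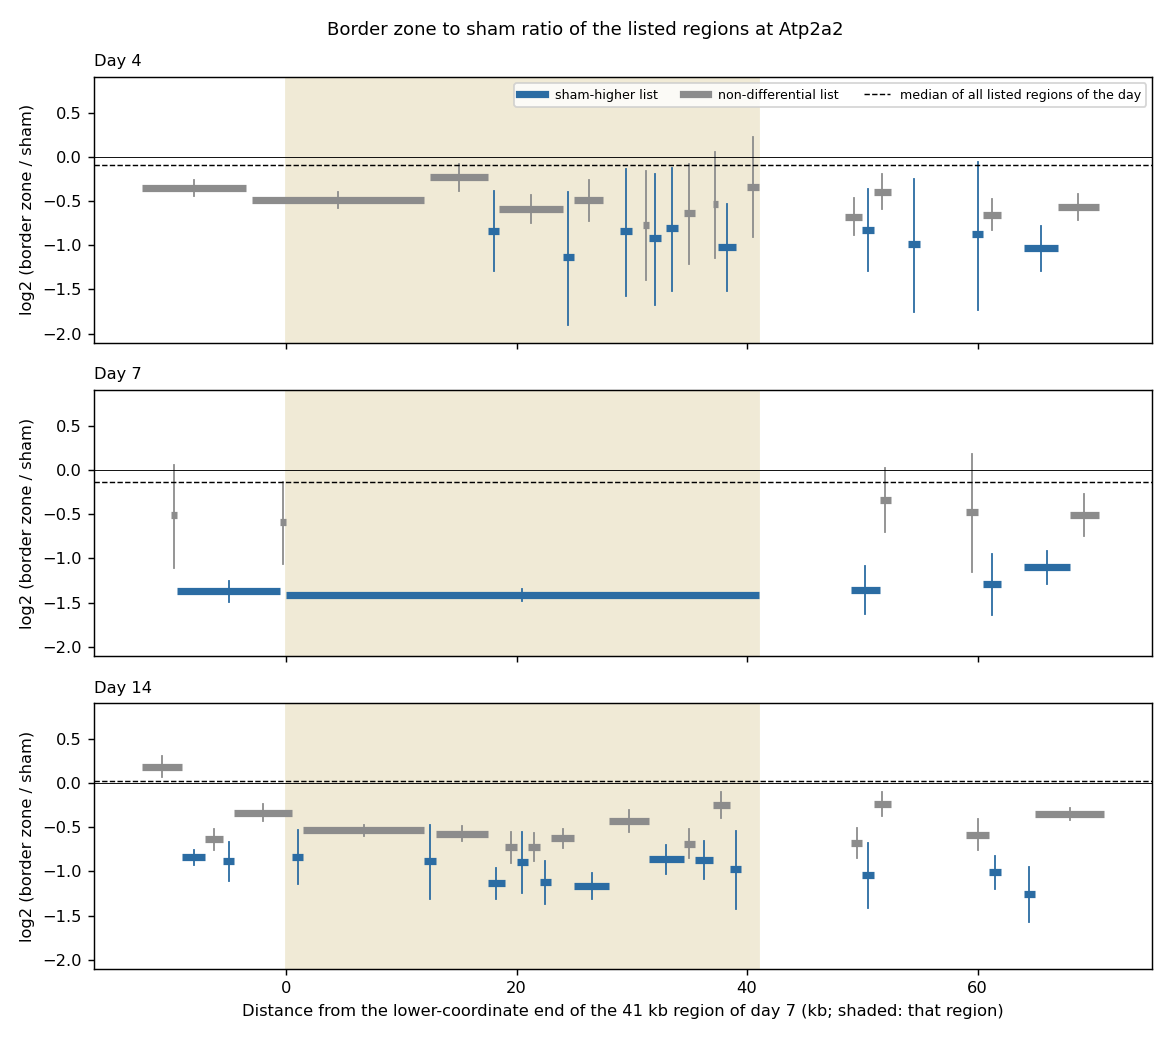
Log2 ratio of border zone to sham (y axis) of every listed region by its distance in kb from the lower-coordinate end of the 41 kb region of day 7 (x axis, that region shaded), in 1 panel per day. Horizontal bars span a region, vertical lines are exact 95% intervals of counting error, blue marks the sham-higher list, grey the non-differential list and the dashed line the median of all listed regions of the day; bars lie below the dashed line except for 1 region of day 14.

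On day 4 the lower-coordinate end was covered by broad non-differential regions. The region 122897251 to 122906250 had 1664 border zone tags against 2124 sham tags, a ratio of 0.783. The region 122906751 to 122921750, 15 kb wide, had 1707 border zone tags against 2398 sham tags, a ratio of 0.712. The region 122922251 to 122927250 had 636 border zone tags against 748 sham tags, and its ratio of 0.850 (0.764 to 0.946) was the highest of the day in the window. The 6 sham-higher regions of day 4 in the stretch all lay at higher coordinates than these and held between 49 and 126 sham tags. The lowest ratio was that of 122933751 to 122934750, 0.458 (0.267 to 0.761), from 23.8 border zone tags against 52 sham tags. At 122947251 to 122948750 the border zone had 55.7 tags and sham 113, a ratio of 0.493 (0.348 to 0.691). At the upper end, 122949751 to 122950750 had 49 border zone tags against 62 sham tags, a ratio of 0.790 whose interval included 1.

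On day 14 sham-higher and non-differential regions alternated through the whole stretch, 11 of each. The lowest ratios in the gene were those of 122934751 to 122937750, with 699 border zone tags against 1563 sham tags (0.447, 0.404 to 0.495), and of 122927251 to 122928750, with 490 against 1074 (0.456, 0.403 to 0.514). The broadest region, 122911251 to 122921750, was non-differential, with 4162 border zone tags against 6024 sham tags and a ratio of 0.691 (0.661 to 0.722). The border zone was therefore lower in the non-differential regions too. Over all 15 non-differential regions of the window the summed ratio was 0.729 (0.715 to 0.743), against 0.516 (0.498 to 0.534) in the 14 sham-higher ones. Over all non-differential regions of that day it was 0.978. The window's 13 non-differential regions of day 4 gave 0.723 (0.700 to 0.746), against 0.904 over all non-differential regions of that day.

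A single region had more border zone than sham tags. It was the lowest-coordinate region of day 14, 122897251 to 122900750, with 1527 scaled border zone tags against 1343 sham tags and a ratio of 1.14 (1.05 to 1.23). It was not called differential, and without the scaling factor its 1114 whole border zone tags were fewer than its sham tags, a ratio of 0.829. The region beside it, 122900751 to 122902750, was sham-higher, with 2142 border zone tags against 3828 sham tags and a ratio of 0.560 (0.527 to 0.594). This pair sits near the end of the gene where transcription stops. On day 7 the region over the same end, 122900251 to 122909250, had 1043 border zone tags against 2696 sham tags, a ratio of 0.387 (0.357 to 0.419).

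The smallest fold between listed values in the authors' differential lists was 1.75 on each day. On days 7 and 14 no non-differential region reached it. On day 4, where non-differential border zone tags are unscaled, listed non-differential ratios went down to 0.519. In the window, neighbouring regions often fell just inside or just outside this limit. On day 14 the sham-higher region closest to the limit, 122910251 to 122911250, had a ratio of 0.561, and the closest non-differential region, 122928751 to 122929750, had 0.604. For day 4 the closest on either side were 122942751 to 122943750 at 0.571 and 122940751 to 122941250 at 0.587. The first of these is from scaled and the second from unscaled border zone tags. For day 7 there was a gap between 0.467 at 122973751 to 122977750 on the inside and 0.663 at 122909251 to 122909750 on the outside.

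Within the stretch over the gene, days 4 and 14 could also be compared in segments that no region of either day crossed. In the lower-coordinate segment of 24.5 kb, 122897251 to 122921750, the ratio was 0.745 on day 4 (0.713 to 0.780) and 0.698 on day 14 (0.680 to 0.717). In the segment 122927251 to 122934750 it was 0.641 on day 4 and 0.576 on day 14. The widest gap was in 122934751 to 122937750, where the ratio was 0.710 on day 4 (0.605 to 0.833) and 0.447 on day 14 (0.404 to 0.495). In the segment 122921751 to 122927250 it was 0.850 for day 4 (0.764 to 0.946) and 0.666 for day 14 (0.628 to 0.706). The intervals of both days met in neither of these last 2 segments. Here, in the first segment and in 122944251 to 122945250, all day 4 regions were non-differential, with unscaled border zone tags. Of the other segments named in this paragraph, all but 122941251 to 122944250 mixed scaled and unscaled day 4 tags. The day 14 border zone tags were scaled, so these ratios are not on 1 scale. In 2 segments day 14 had the higher ratio, with intervals that met: 122937751 to 122941250 had 0.575 on day 4 (0.416 to 0.788) and 0.742 on day 14 (0.681 to 0.807), and 122946751 to 122949250 had 0.562 on day 4 (0.432 to 0.726) and 0.794 on day 14 (0.722 to 0.874). Between them, 122941251 to 122944250 had 0.551 on both days, and 122944251 to 122945250 had 0.643 on day 4 and 0.622 on day 14. The days listed unlike lengths of some segments, such as 1.5 kb on day 4 and 3.5 kb on day 14 in 122937751 to 122941250. Segments beyond the stretch went both ways. At 122968751 to 122971750 the ratio was 0.631 on day 4 and 0.577 on day 14. At 122973751 to 122980750 it was 0.619 (0.567 to 0.675) on day 4 and 0.760 (0.725 to 0.796) on day 14, with intervals that did not meet.

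No region was listed on any day from 122950751 to 122958250, a stretch of 7.5 kb that adjoins the gene's starting end. Whether the promoter lies inside it was not determined, and no value for it exists in the lists. Beyond it, 3 further places were listed on all days. The first, 122958251 to 122962250, had 737 border zone tags against 1085 sham tags on day 4, then 331 against 666 for day 7 and 1667 against 2308 for day 14. The next, 122968751 to 122971750, had 448 border zone tags against 710 sham tags on day 4, then 167 against 364 for day 7 and 1024 against 1774 for day 14. The last, 122973751 to 122980750, had 843 border zone tags against 1361 sham tags on day 4, then 723 against 1337 for day 7 and 3852 against 5069 for day 14. Sham was ahead in all 9 pairs.

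Day 7 had the lowest ratio in the gene and in all 3 flanking places. At 122968751 the day 7 interval met those of both other days, and at 122973751 it met that of day 4. The place at 122968751 had its days in the same order as the gene, with day 4 highest, whereas day 14 was highest at 122958251 and 122973751. On day 7 the ratio was 0.384 in the stretch over the gene, 0.498 in the first flanking place (0.428 to 0.577), 0.459 in the next (0.371 to 0.564) and 0.541 in the last (0.489 to 0.598). The gene was lowest on that day, with an interval that meets only that of the place at 122968751. On day 4 the gene, at 0.729, was above the flanking places, at 0.679 (0.618 to 0.747), 0.631 (0.559 to 0.711) and 0.619 (0.567 to 0.675), although its interval met those of the first 2. On day 14 the gene, at 0.656, lay between 0.577 (0.529 to 0.629) at 122968751 and both 0.722 (0.673 to 0.775) at 122958251 and 0.760 (0.725 to 0.796) at 122973751. A place at 122963751 to 122964750 was listed on day 4 alone, with 24.8 border zone tags against 49 sham tags. Which of these places belong to Atp2a2 and which to Ift81 or the noncoding genes between them was not determined.

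**Figure D4:**
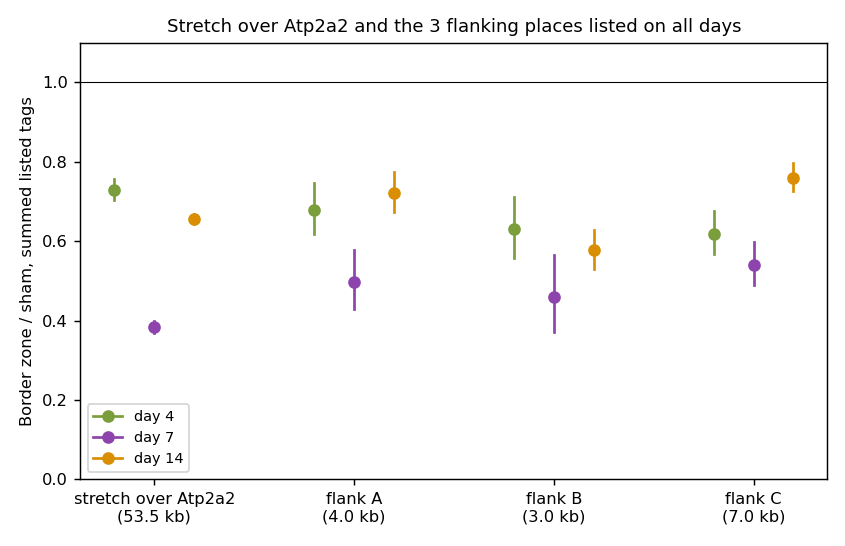
Ratio of summed border zone to sham tags (y axis) in the stretch over Atp2a2 and, at higher coordinates, in the 3 flanking places listed on all days (flanks A, B and C start at 122958251, 122968751 and 122973751). Points are 1 pair of libraries each, coloured by day, with exact 95% intervals of counting error. All points lie below 1, and day 7 is the lowest in every place. In flanks B and C its interval meets that of at least 1 other day.

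Within the stretch over the gene, sham tags were densest at the lower-coordinate end on all 3 days. On day 14 the highest densities were 1071 border zone and 1914 sham tags per kb at 122900751 to 122902750 and 804 and 1249 at 122902751 to 122904250. On day 7 this end had 116 border zone and 300 sham tags per kb at 122900251 to 122909250. On day 4 it had 185 border zone and 236 sham tags per kb at 122897251 to 122906250, and the flank at 122970251 to 122971750 was denser, with 285 and 448. Density is a poor guide here, because tags of a listed region may include those of sequence trimmed from it. The tag minimum was the same for regions of 500 bp and of 1000 bp, 50 tags on day 7 and 150 on day 14. If tags of overlapping windows were added within a region, the intervals are also too narrow. If 50% of the tags were independent, the interval of the 41 kb region would be 0.351 to 0.402.

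On a fixed grid of 100 kb, the window from 122900001 to 123000000 that holds Atp2a2 was set beside the 4 other windows with the most sham-higher over border zone-higher regions. Its ratio was 0.702, 0.411 and 0.655 for days 4, 7 and 14. The windows from 76600001 and from 76700001 on chromosome 2 had 0.781 and 0.818 for day 4, 0.484 and 0.466 for day 7, and 0.735 and 0.783 for day 14. The window from 104500001 on chromosome 12 had 0.814, 0.451 and 0.676 on days 4, 7 and 14. In these windows, as at Atp2a2, day 7 was the lowest. The window from 55500001 on chromosome 14 had 0.559, 0.642 and 0.530, with day 7 the highest. All of these windows were chosen by the same calls, and their differences from Atp2a2 were not tested, with 1 library per group and day.

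**Figure D5:**
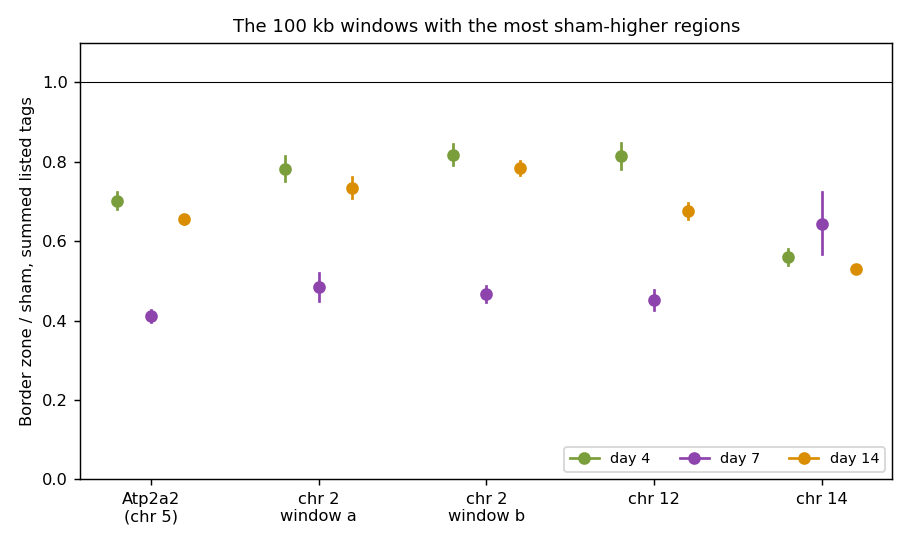
Ratio of summed border zone to sham tags (y axis) in 5 windows of 100 kb (x axis). These have the most sham-higher minus border zone-higher regions, among windows where sham-higher regions outnumber border zone-higher ones on every day. Windows a and b of chromosome 2 start at 76600001 and 76700001. Points are 1 pair of libraries per day with exact 95% intervals of counting error; at Atp2a2 the points are 0.702, 0.411 and 0.655 on days 4, 7 and 14, and the window on chromosome 14 alone has its highest point on day 7.

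Among the 1593 windows with at least 5 listed regions on every day, the median log2 ratio was -0.12, -0.19 and 0.01 for days 4, 7 and 14. The Atp2a2 window had -0.51, -1.28 and -0.61 on these days, and ranked 17, 6 and 23 from the lowest. The 5 windows with the nearest log2 ratios over the 3 days, by Euclidean distance, started at 45900001 on chromosome 19 (distance 0.19), 32800001 on chromosome 13 (0.20), 64700001 on chromosome 14 (0.20), 85300001 on chromosome 3 (0.23) and 104500001 on chromosome 12 (0.26). The nearest of them had ratios of 0.763, 0.422 and 0.720 on days 4, 7 and 14, from 5, 5 and 8 regions. The likeness rests on 3 ratios per window, and the genes in these windows were not assigned.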

How the data were processed

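The members and the comparisons were chosen with earlier results of these data known. The genome build mm9 and the tools Bowtie2 (day 4), BWA (days 7 and 14) and bedtools (all days) come from the submitters' processing notes. How regions were called and duplicates handled was not stated. Of the 9 deposited lists, each gives per region the sham tags, which are counts per the file headers, and the border zone tags. The border zone tags are a signal scaled by the authors, and unscaled deposited counts in the non-differential list of day 4. Read from the values, the leading factors were 1.03, 1.35 and 1.37 on days 4, 7 and 14.

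Whole tags were recovered as multiples of 1 factor within a relative tolerance of 0.001% (97.3% of 85106 scaled values, 44 of 49 in the window) or as a sum of 2 factors (5 of 49). The recovery was tested on simulated data. Ratios are sums of the listed values, and intervals are exact Clopper-Pearson intervals of whole tags (scipy 1.17.1). Regions were joined by an overlap of at least 1 bp or, within a day, by touching. The regions named are the wide day 7 region, those with the densest sham tags and with the lowest and highest ratios (3 per day, of which those the text turns on are given), and those at the ends of the gene. Columns of unmapped samples numbered 0. Coordinates are counted from 1. No gene list or marker list was used, because no mm9 annotation was given.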

Additional observations from a re-analysis of the deposited data

Results flagged for a closer look

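The lowest-coordinate region of day 14 had a border zone to sham ratio of 1.14, above 1, whereas the regions overlapping it on day 4 (ratio 0.783) and on day 7 (0.700 and 0.387) were below 1. The overlapping regions differ in their bounds, the difference between days was not tested, and without the scaling factor the day 14 ratio was 0.829.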

How the results depend on the processing

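Of 57 alternative values, 35 stayed within the interval of counting error or within 1.5 times a count, 21 moved beyond these limits and 1 reversed. Some of the 35 could hardly change. A fold of at least 2 was applied to regions already called, so 0 border zone-higher regions stayed 0. The median factor equalled no factor on day 4 and the leading factor on days 7 and 14. No summed ratio of the window or of the wide region's span rose to 1 under any alternative run. Whole tags with no factor gave window ratios of 0.303 on day 7 and 0.488 on day 14, and 0.279 and 0.474 inside the wide region's span. With the highest solution for whole tags, chosen after seeing the data, these were 0.328, 0.491, 0.321 and 0.479. With 1 factor per day from the summed listed tags the window gave 0.755 on day 4 and 0.427 on day 7, and the span gave 0.760 on day 4. Regions overlapping the approximate gene span gave 0.729, 0.384 and 0.656 on days 4, 7 and 14, and differential regions only gave 0.517, 0.387 and 0.516. Regions wholly inside the wide region's span, and those with at least 50% of their width inside, gave 0.634 on day 14. A fold of at least 2 left 3 of 10 sham-higher regions on day 4 and 6 of 14 on day 14, and 5 of 5 on day 7. The lowest-coordinate region of day 14 reversed to 0.829 with no factor. No paired analysis was possible because the labels give no replicate numbers and each condition has 1 library per day; a fit with the days as blocks was not made, since the contrast chose the regions. Low tag numbers widen the intervals of single regions, such as the sham-higher regions of day 4 in the gene, which held as few as 49 sham tags.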
